A study of Xenopus laevis with 35 samples.

Results

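Growth hormone (gh1.S), prolactin (prl.1.L) and the prolactin receptor (prlr.L) were followed in the brains of Xenopus laevis tadpoles exposed to inhibitors of thyroid hormone production. They were taken as the probes that the platform annotation assigns to these genes, 3 of the 243 genes named on an array of 449 probes, of which 250 have a gene name. Each probe is printed as a pair of neighbouring spots: 421 and 422 for gh1.S (Gh in the platform's own symbols), 395 and 396 for prl.1.L (prl), and 621 and 622 for prlr.L (prlr-A). The suffixes .S and .L mark the short and long chromosome copies of a gene in this allotetraploid frog, and whether a probe also binds the other copy was not tested. Tadpoles at Nieuwkoop and Faber (NF) stage 54, early in prometamorphosis, were exposed to 100 mg/L MMI, 20 mg/L PTU or 4 mg/L PER, or kept as controls without a chemical, and were sampled after 24, 48 and 96 h. The labels give only these short forms, which stand for methimazole and propylthiouracil, blockers of thyroid peroxidase, and perchlorate, which blocks iodide uptake by the thyroid. For each treatment and time 10 tadpoles were taken and 3 pools of their brain RNA were made, so replicate arrays differ as pools of animals do. Each group had 3 arrays except PER at 24 h, which had 2.

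Growth hormone and prolactin are related pituitary hormones that act through receptors of the class I cytokine receptor family and the JAK-STAT pathway. Both have been studied as promoters of larval growth in frogs, and prolactin for its opposition to thyroid hormone in tadpole tissues, while its pituitary expression climbs late in metamorphosis. Both hormones are made mainly in the anterior pituitary, which may or may not stay with a dissected brain. The labels do not say whether it did, and of the 9 pituitary markers considered (the common glycoprotein subunit, TSH beta, POMC and POU1F1 among them) gh1.S and prl.1.L were the only ones with a named probe. A lower share of hormone-producing cells in a pool and less transcript per cell cannot be told apart in these data.

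Of 8 genes on the array that were listed as brain markers, 7 were above background on 18 or more arrays, the exception being dlx2.L with 11. They include pcna.S and id2.L, which are not particular to brain. On the whole array of 449 probes, 92 to 95 of those tested in each comparison were above background on 18 or more arrays. The markers of other tissues were nearly absent from the design: the blood gene hbd.S was above background on 7 of 29 arrays and the gut gene fabp2.L on 5 of 35, and none of the immune, muscle, epidermis or retina markers had a named probe. The number of probes above background per array was 86 to 241 with MMI, 104 to 154 with PTU, 131 to 209 with PER and 79 to 147 in controls. The background SD of an array had a median of 614 units with MMI, 582 with PTU, 349 with PER and 1051 in controls, so a probe had to be brighter on a control array to count as above background. The first PER array at 24 h and the third at 48 h (replicates 1 and 3) were nearly identical in value (Pearson r = 0.9999 over spots, against 0.963 for the next closest pair), which leaves 34 distinct arrays. PER levels, changes and permutation tests of the 3 genes that use either copy are given with and without both.

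The 3 genes differed in whether they could be measured at all. All values below are scaled intensities, in linear units after scaling between arrays. "Above background" means more than 2 background SDs of that array, and each gene had a value on 34 of 35 arrays. The growth hormone probe was above background on 33 of its 34 arrays, with a median of 8.75 background SDs. The exception was control 24 h replicate 2 at 1.92 SDs. Over the whole array, 46 probes (10.2%) were above background on 33 or more arrays. The prolactin probe was above background on 1 of 34 arrays and the receptor probe on 2 of 34, with medians of 0.298 and -1.17 background SDs. In all, 94 probes (20.9%) were above background on at most 2 arrays. A value below 0 means that the spot was dimmer than the background that had been subtracted from it. No gh1.S value was below 0, against 10 prl.1.L values (29.4%) and 26 prlr.L values (76.5%), where 30.2% of all probe values were. A share as high as that of prlr.L was reached by 5 probes (1.12%), prlr.L among them.

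**Figure D1:**
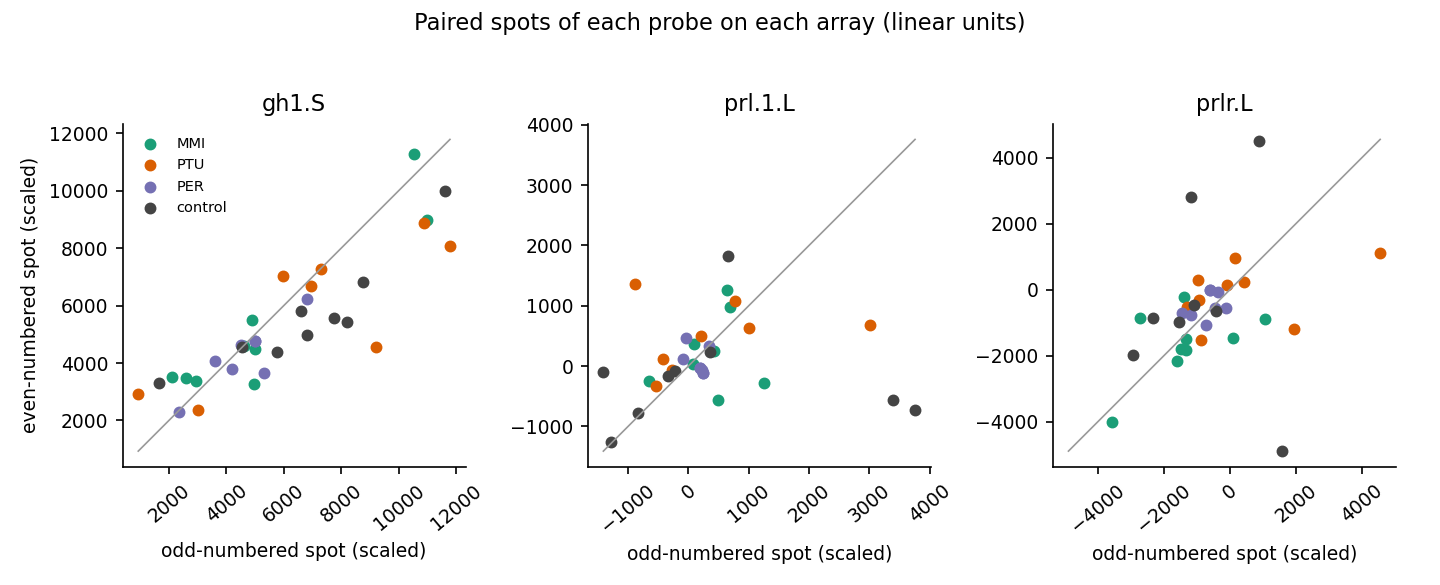
Paired spots of gh1.S, prl.1.L and prlr.L on each array, in scaled intensity (linear units), odd-numbered spot on the x axis and even-numbered spot on the y axis, with the line of equal values; 1 point is 1 array, coloured by treatment. The gh1.S points follow the line, with a rank correlation of 0.867. The prl.1.L points scatter around 0, with a rank correlation of 0.252. For prlr.L the rank correlation is 0.406, and the average of the paired spots is below 0 on 26 of 34 arrays.

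The paired spots of a probe show how far a value can be trusted on 1 array. For gh1.S the spots ranked the arrays alike (Spearman correlation 0.867 over 34 arrays, a description over arrays that share scaling and background). Their gap had a median of 15.6% of their mean and reached 103%. For prl.1.L the correlation was 0.252 over 33 arrays and for prlr.L 0.406 over 34. Both spots were above background on 31 arrays for gh1.S and on 0 for each of the other genes.

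The growth hormone probe gave a signal above background in all 12 groups, on every array with a value but the control named above. It read between 1926 and 10900 units on single arrays. With MMI, gh1.S read 3168, 4611 and 2817 units at 24 h, against 5076, 2473 and 6814 in controls of that time. At 48 h the MMI arrays read 5183, 4743 and 4111, against 4537, 7786 and 6650 in controls. At 96 h they read 9985, 3030 and 10900, against 6208, 5888 and 10794 in controls. MMI and control arrays overlapped at each of the 3 times, and the MMI arrays at 96 h split into a pair at 9985 and 10900 units and 1 array near the 24 h level. The divisors used to scale that pair, an array's median over the scaling probes relative to all arrays, were 0.627 and 0.490, against 0.986 for the array at 3030 units.

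With PTU, gh1.S read 9872, 7287 and 6883 units at 24 h, all above the highest of the 3 control arrays, which were at 5076, 2473 and 6814. At 48 h the 2 PTU arrays with a value read 6814 and 6499, inside the control range of 4537 to 7786; replicate 1 has no value there. At 96 h the PTU arrays read 1926, 2692 and 9921, against 6208, 5888 and 10794 in controls. The groups were thus separate at 24 h after scaling, though the nearest arrays were at 6883 and 6814 units. As deposited, before scaling, they overlapped: the spots of PTU replicate 2 read 5811 and 5802, against 8188 and 5397 in control replicate 3. In this 24 h comparison 1.58% of probes were called and gh1.S was not. The smallest exact permutation p for 3 against 3 arrays is 0.1, so separation is no result by itself. The share of all probes that separate is not given here. The groups overlapped at 48 and 96 h, and at 96 h 2 PTU arrays lay below every control array while 1 did not.

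With PER, the 2 arrays at 24 h read 4892 and 3997 units of gh1.S, inside the control range of 2473 to 6814. At 48 h the PER arrays read 4480, 4569 and 4892, against 4537, 7786 and 6650 in controls. At 96 h they read 2322, 3844 and 6512, against 6208, 5888 and 10794 in controls. The value of 4892 stands at both 24 and 48 h because it comes from the shared array. PER arrays overlapped with controls at each time but reached lower at 96 h.

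**Figure D2:**
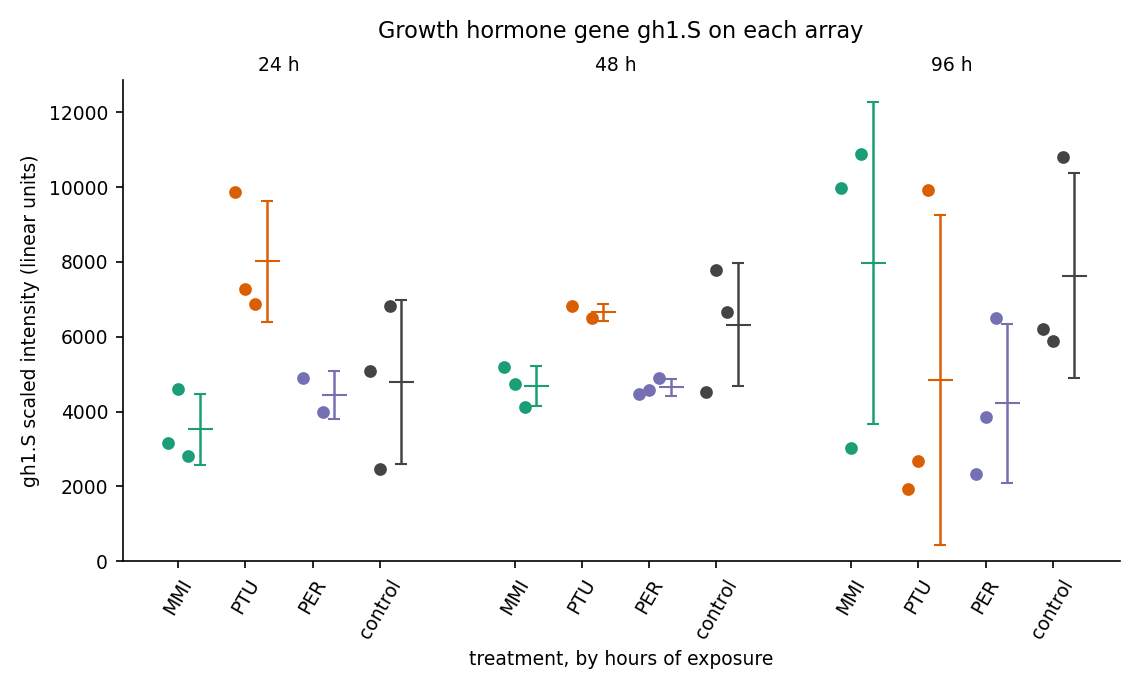
Scaled intensity of gh1.S (y axis, linear units) on each array by treatment and hours of exposure (x axis); points are arrays and the bar beside them is the group mean ± SD (n = 3, or 2 for PTU at 48 h and PER at 24 h). At 24 h PTU lies above control, with the nearest arrays at 6883 and 6814 units. At 96 h single arrays run from 1926 units with PTU to 10900 with MMI.

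Ordered by mean, the highest group was PTU at 24 h with 8014 ± 1622 units (SD, n = 3), followed by MMI at 96 h with 7972 ± 4304 and control at 96 h with 7630 ± 2745. The middle of the order was PTU at 48 h (6656 ± 222, n = 2), control at 48 h (6324 ± 1648), PTU at 96 h (4846 ± 4412), control at 24 h (4788 ± 2185) and MMI at 48 h (4679 ± 539). The lowest were PER at 48 h (4647 ± 217, or 4524 ± 62.5 with n = 2 without the shared array), PER at 24 h (4444 ± 633, n = 2, of which 1 array at 3997 is not shared), PER at 96 h (4226 ± 2121) and MMI at 24 h (3532 ± 951). For all 11 pairs of neighbours in this order the gap between the means was smaller than the larger of their SDs. The range over all arrays of a treatment was 2817 to 10900 with MMI (median 4611), 1926 to 9921 with PTU (median 6848), 2322 to 6512 with PER (median 4524, or 4238 without the shared array) and 2473 to 10794 in controls (median 6208).

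The comparison of each compound with its control asks whether brain growth hormone transcript responds when thyroid hormone production is blocked, in exposures that the labels report to have enlarged the thyroid and delayed metamorphosis in earlier work. No change of gh1.S passed the test in any of 18 comparisons (limma over all probes, a call being a Benjamini-Hochberg adjusted p under 0.05), and 1 of the 18 had an unadjusted p under 0.05. Of all probes, 4.95% to 18% had an unadjusted p under 0.05, depending on the comparison. Changes are given as log2 of scaled intensity plus an offset of 67.7 units, as compound minus control, with the 95% interval. At 24 h, where 1.58% of probes were called with PTU, 0.676% with MMI and 0% with PER, the change of gh1.S was 0.83 with PTU (interval -0.41 to 2.08, a 1.78-fold level, adjusted p = 0.580), but 1.61 with quantile normalization and 1.89 with arrays scaled on the median of all probes. For MMI it was -0.35 (-1.59 to 0.90, adjusted p = 0.872), or 1.07 scaled on all probes, and for PER 0.0031 (-1.39 to 1.40, adjusted p = 1.00). The PER value was -0.14 without both copies of the shared array, 1.00 with quantile normalization and 0.84 scaled on all probes.

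At 48 h no probe on the array was called with any compound (limma; 0% of 444 tested for MMI, 442 for PTU and 445 for PER, of which 22, 33 and 26 had an unadjusted p under 0.05). The change of gh1.S was -0.40 for MMI (interval -1.65 to 0.85), 0.11 for PTU (-1.29 to 1.5) and -0.41 for PER (-1.65 to 0.84), or -0.44 without the shared array. At 96 h, where 4.74% of probes were called with MMI, 1.14% with PTU and 1.36% with PER, it was -0.083 with MMI (-1.34 to 1.18, adjusted p = 0.954). It was -0.96 with PTU (-2.21 to 0.28, a 0.514-fold level, adjusted p = 0.511) and -0.91 with PER (-2.15 to 0.34, a 0.533-fold level, adjusted p = 0.556). Scaled on all probes the PER value at 96 h was -0.023 and the PTU value -0.69. On the fold scale the 96 h intervals ran from 0.395 to 2.26 for MMI, 0.217 to 1.22 for PTU and 0.225 to 1.27 for PER, so lower as well as higher levels in those ranges were not resolved with 3 arrays a group.

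Over the 3 times together, where 0.679% of probes were called with MMI, 4.34% with PTU and 1.59% with PER, the change of gh1.S was -0.28 with MMI (interval -1.0 to 0.45, adjusted p = 0.793). It was -0.0071 with PTU (-0.75 to 0.74, adjusted p = 1.00) and -0.44 with PER (-1.19 to 0.31, adjusted p = 0.634), or -0.50 without the shared array. Exact two-sided permutation tests, exchanging compound and control within each time, gave p = 0.314 for MMI, p = 0.983 for PTU and p = 0.118 for PER, or p = 0.14 for PER without the shared array. The growth hormone level was under the mean of the time-matched controls on 7 of 9 MMI arrays, 2 of 8 PTU arrays and 7 of 8 PER arrays. The shared array is counted there as higher at 24 h and as lower at 48 h, and without both copies the count was 6 of 6 PER arrays. The compounds share their controls, so these shares are not independent of each other.

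The size and the sign of these changes depended on how arrays were scaled, and brighter probes as a group moved too. Over the 92 to 95 probes above background on 18 or more arrays, the median change over the 3 times was 0.23 for MMI, 0.038 for PTU and 0.16 for PER. Relative to those medians gh1.S lay at -0.51 for MMI, -0.045 for PTU and -0.60 for PER (-0.66 without the shared array). With arrays scaled on the median of all probes instead, the change of gh1.S itself was 0.40 for MMI, 0.66 for PTU and 0.22 for PER, so the sign given above turned for all 3 compounds. Relative to the brighter probes it was then -0.50 for MMI, -0.059 for PTU and -0.58 for PER. Both scalings divide an array by 1 number, which moves gh1.S and the brighter probes nearly alike. The closeness of these values to those under the first scaling was thus fixed in advance and is no support for them. The same applies at single times. Relative to the brighter probes gh1.S lay at 1.02 with PTU at 24 h, and at -0.99, -1.31 and -1.51 with MMI, PTU and PER at 96 h. The other single-time values ran from -0.54 (MMI at 48 h) to 0.31 (PER at 24 h, shared array included). Scaled on all probes, the PTU value at 24 h was 1.03 and the 96 h values were -0.97, -1.29 and -1.51. Quantile normalization does not divide an array by 1 number. Under it these relative values were 1.47 with PTU at 24 h, and -1.28, -1.35 and -1.82 with MMI, PTU and PER at 96 h. Over the 3 times they were -0.54 for MMI, 0.18 for PTU and -0.54 for PER, so the sign turned for PTU.

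The effect of PTU on gh1.S was 0.83 at 24 h and -0.96 at 96 h. The test of that difference gave -1.79 (SE 0.85, interval -3.55 to -0.036), with an unadjusted p = 0.0459 and an adjusted p = 0.379, where 0.457% of probes were called. In that comparison 12.1% of probes had an unadjusted p under 0.05. The difference between 96 and 24 h was -0.91 with PER (interval -2.78 to 0.96, adjusted p = 0.855; -0.77 without the shared array), where 0.227% of probes were called. With MMI it was 0.26 (-1.52 to 2.04, adjusted p = 0.928), where 2.94% were called. None of these passed the test. Relative to the brighter probes, the 96 h minus 24 h differences of gh1.S were -2.29 with PTU, -1.99 with PER (shared array included) and -1.27 with MMI. The sign thus turned for MMI. These relative values were not tested.

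**Figure D3:**
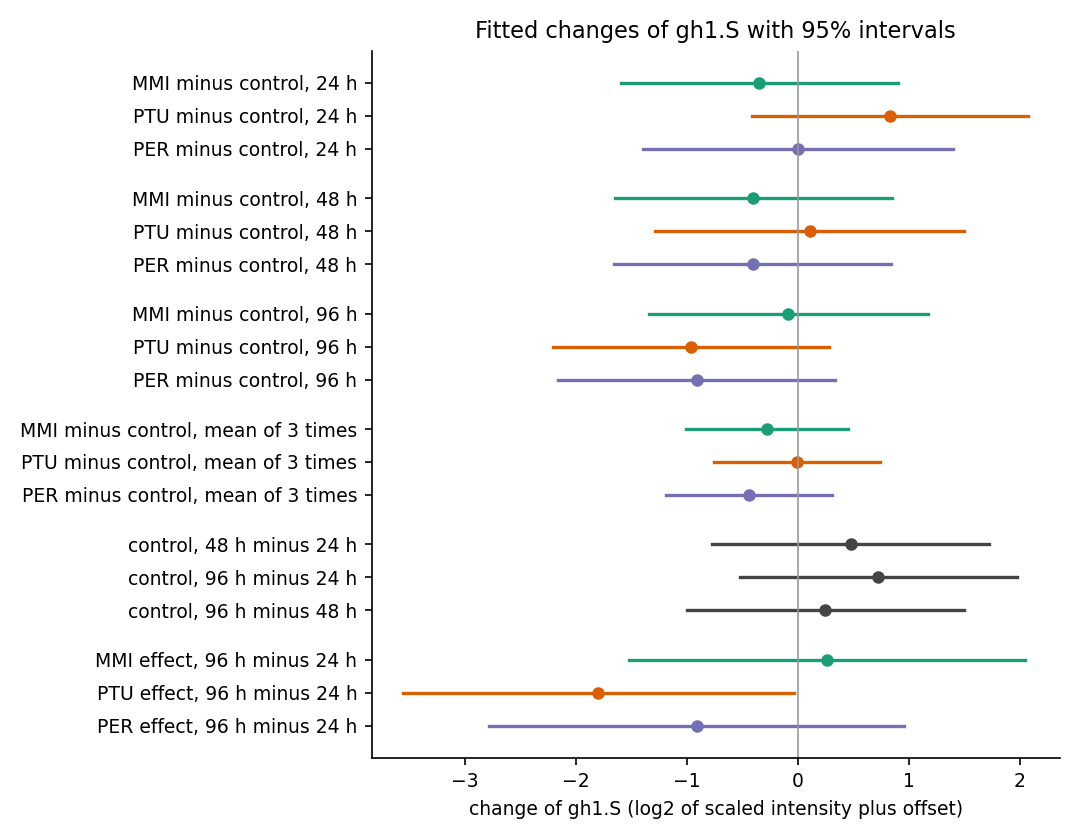
Fitted changes of gh1.S (x axis, log2 of scaled intensity plus offset) for the 18 comparisons, with 95% intervals; the vertical line marks no change. All intervals cross 0 except that of the PTU effect at 96 h minus 24 h, whose adjusted p was 0.379.

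In control brains the growth hormone mean was 7630 ± 2745 units at 96 h and 6324 ± 1648 at 48 h, against 4788 ± 2185 at 24 h (n = 3 each). The change was 0.72 for 96 h against 24 h (interval -0.52 to 1.97, adjusted p = 0.581, 5.39% of probes called), or 1.67 with quantile normalization and 1.23 scaled on all probes. It was 0.48 for 48 h against 24 h (-0.77 to 1.72, adjusted p = 0.867, 0.674% called) and 0.25 for 96 h against 48 h (-1.0 to 1.49, adjusted p = 0.939, 1.58% called). The brighter probes had a median change of -0.92 for 96 h against 24 h, and gh1.S lay 1.65 above it. The background SD of the control arrays was 999 to 1262 units at 96 h, 433 to 1042 at 48 h and 1217 to 1632 at 24 h.

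The level of gh1.S was also set beside array properties. Over 33 distinct arrays with a value, the scaled level had a Pearson correlation of -0.375 (Spearman -0.333) with the array's scale divisor and of 0.356 (Spearman 0.390) with its background SD. The level as deposited, before scaling, correlated at 0.214 with the divisor. These are descriptions over arrays that share the scaling, and their part in the comparisons was not tested. In the separated PTU comparison at 24 h, the background SD was 582 to 892 units with PTU and 1217 to 1632 in controls, and the divisor was 0.762 to 0.937 with PTU and 0.806 to 0.997 in controls.

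Prolactin transcript could not be told from background in 33 of 34 arrays. The exception was PTU 96 h replicate 2, at 1845 units or 5.42 background SDs, and its spots read 3016 and 674. The other PTU arrays at 96 h read 239 and 926 units, against -249, 1410 and -807 in controls. By treatment, prl.1.L ran from -454 to 957 units with MMI (median 286, n = 8), -439 to 1845 with PTU (median 239, n = 9), 14.1 to 335 with PER (median 80.4 over 8 arrays, or 83.2 over the 6 besides both copies of the shared one) and -1267 to 1515 in controls (median -149, n = 9). The SD over arrays was smallest with PER, at 103 units (117 without the shared array), and largest in controls, at 1040 units, and the median background SD was likewise lowest with PER and highest in controls.

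The group means of prl.1.L were highest for PTU at 96 h, at 1003 ± 806 units, and lowest for control at 24 h, at -169 ± 1481 (n = 3 each). None of the 18 comparisons passed the test for prl.1.L, and none had an unadjusted p under 0.05 (limma, adjusted p from 0.521 to 1.00). Exact permutation tests over the 3 times gave p = 0.778 for MMI, p = 0.691 for PTU and p = 0.60 for PER, or p = 0.728 for PER without the shared array. Since both sides of nearly every comparison were below the background limit, no fold is given.

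**Figure D4:**
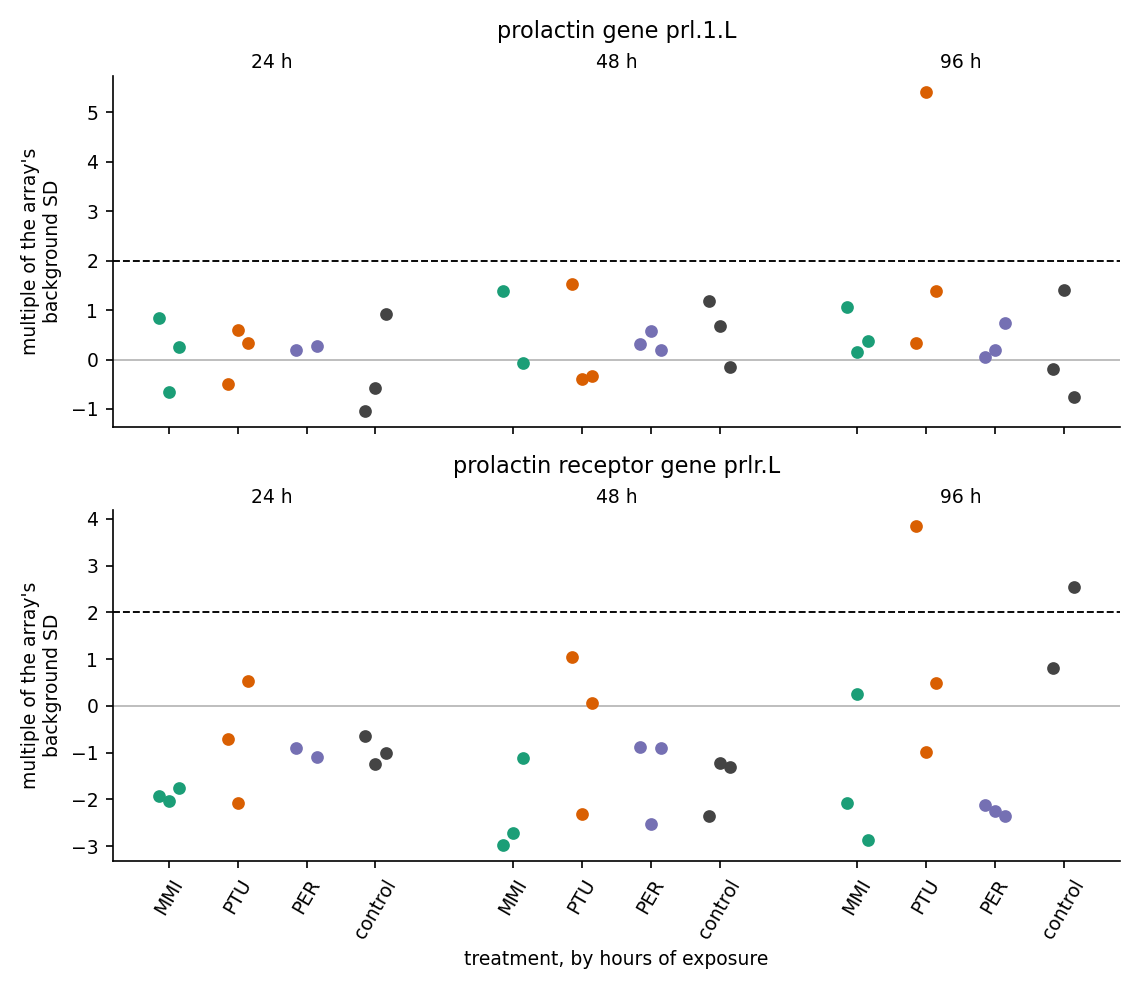
Prolactin (prl.1.L, upper panel) and prolactin receptor (prlr.L, lower panel) on each array, as multiples of that array's background SD (y axis), by treatment and hours of exposure (x axis); the dashed line marks 2 background SDs. The dashed line is passed by 1 array for prl.1.L and by 2 for prlr.L, all at 96 h.

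The prolactin receptor, the membrane protein through which prolactin signals, was likewise close to or under background, yet its probe was called in 4 comparisons, all of which involve control brains at 96 h. At 96 h prlr.L read -1876, 94 and -3789 units with MMI, 2826, -333 and 327 with PTU, and -513, -969 and -1080 in the PER arrays, against 804 and 2685 in the 2 control arrays that have a value. The MMI and PER arrays lay below both controls, and the PTU arrays lay on either side of them. With so few arrays such separation is no result by itself. At 24 h all arrays were below 0 except PTU replicate 3 at 375 units, and at 48 h all except PTU replicates 1 and 3 at 563 and 28.

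At 96 h prlr.L averaged -1857 ± 1941 units with MMI (SD, n = 3), 940 ± 1666 with PTU (n = 3) and -854 ± 300 in the PER group (n = 3), against 1744 ± 1330 in controls (n = 2). The fitted change was -4.10 with MMI (SE 1.05, adjusted p = 0.0203), where 0.903% of probes were called lower, and -4.52 with PER (SE 1.05, adjusted p = 0.0187), where 0.226% were, prlr.L alone. With PTU it was -1.86 (SE 1.05, adjusted p = 0.476). Values below 0 were set to 0 before logs, so groups wholly below 0 share 1 value and add no spread, and these p-values can be too small. The size of the changes was set by the offset: with its value taken at the 1st and at the 25th percentile of positive values, the change was -5.68 and -2.30 with MMI (adjusted p = 0.0387 and 0.0183) and -6.63 and -2.42 with PER (0.0204 and 0.0452). The background SD was 241 to 458 units on the PER arrays, against 999 to 1262 in controls. No fold is given for either compound, since 1 of the 2 control arrays was above background and the other, at 804 units, was not.

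In control brains prlr.L averaged 1744 ± 1330 units at 96 h (n = 2), against -1342 ± 493 at 24 h and -1420 ± 974 at 48 h (n = 3 each). The change was 4.52 for 96 h against 24 h (SE 1.05, adjusted p = 0.00940), where 0.674% of probes were called higher. It was 4.52 for 96 h against 48 h (SE 1.05, adjusted p = 0.0270), where 0.225% were, prlr.L alone. Both changes were 6.63 and 2.42 with the smaller and the larger offset, and no fold is given for the same reason. The 4 called comparisons share the 96 h control arrays and are not independent of each other.

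Those calls rested on few spots and arrays, and the paired spots disagreed. In controls at 96 h the odd-numbered spot of prlr.L read -1188 and 878 units and the even-numbered spot 2796 and 4492. With MMI the odd-numbered spot averaged -1372 ± 2332 units and the even-numbered one -2342 ± 1567. With PER these were -1032 ± 516 and -676 ± 96.0, against -155 ± 1461 and 3644 ± 1199 in controls. From the odd-numbered spot alone none of the 4 calls remained: the change was -0.47 with MMI (adjusted p = 0.956), -1.77 with PER (0.687), 0.27 for control 96 h against 24 h (0.959) and 1.77 for control 96 h against 48 h (0.689). From the even-numbered spot alone all 4 remained, at -5.24 with MMI (adjusted p = 5.6e-05), -5.24 with PER (4.9e-05), 5.24 for control 96 h against 24 h (4.9e-05) and 5.24 for 96 h against 48 h (4.8e-05). That spot also gave calls that the average did not: PTU at 96 h (-2.69, adjusted p = 0.0413), MMI and PER over the 3 times (both -1.75, 0.0136 and 0.0115), and the 96 h minus 24 h difference with MMI and PER (both -5.24, 0.00582 and 0.0105). Since MMI, PER and the earlier controls then all sat at the floor, they added no spread.

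Leaving out control 96 h replicate 3, the only control array above background, left 1 control array with a value, at 804 units, whose spread was taken from the other groups. The changes stayed large and no call remained: -3.27 with MMI (adjusted p = 0.169), -3.69 with PER (0.128), 3.69 for 96 h against 24 h (0.105) and 3.69 for 96 h against 48 h (0.123).

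The change of the receptor's response between 96 and 24 h did not pass the test with MMI (adjusted p = 0.112), PTU (0.396) or PER (0.330). Over the 3 times the change was -1.37 with MMI (adjusted p = 0.361), 0.093 with PTU (0.973) and -1.51 with PER (0.254). Exact permutation tests gave p = 0.10 for MMI, p = 0.950 for PTU and p = 0.10 for PER, with and without the shared array. All MMI, PER and control arrays at 24 and 48 h sat at the floor, so only the 96 h arrays could vary between arrangements. For MMI and PER 0.10 was thus the lowest value the test could give, and the shared array could not alter it. With both of its copies left out, the PER call at 96 h held (adjusted p = 0.0340), and the adjusted p was 0.448 over the 3 times and 0.594 for 96 h minus 24 h.

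Few other genes of this endocrine axis were on the array. Of 24 regulators of the hypothalamus and pituitary 5 had a probe: npy.S (neuropeptide Y) was above background on 30 arrays, trh.S, the precursor of thyrotropin-releasing hormone, which in bullfrogs releases prolactin, on 4, crhr2.S on 2, crhbp.S on 1 and crhr1.2.S, a receptor for corticotropin-releasing hormone, on 0. Of 26 genes of growth hormone and prolactin signalling 2 had a probe, prlr.L itself and the adaptor grb2.L, above background on 20 arrays. Of 27 genes of the thyroid hormone axis and response 7 had a probe, of which fap.L, a membrane protease, was above background on 23 arrays and rxrb.L, a partner of the thyroid hormone receptors, on 14.

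Of these genes besides prlr.L, npy.S and crhbp.S were called in comparisons of groups, again at 96 h. Neuropeptide Y, a hypothalamic peptide that also stimulates feeding, read 2916, 2941 and 5022 units with MMI, 367, 2520 and 2164 with PTU, and 3082, 3857 and 2311 in the PER arrays, against -1657, 1917 and -993 in controls. All MMI and PER arrays lay above all 3 controls, which were below background. As for gh1.S, such separation is no result by itself. The background SD was 999 to 1262 units on these controls, against 354 to 1320 with MMI and 241 to 458 with PER. The control at 1917 units was thus below a limit higher than that of the PER arrays. With MMI the level was at least 1.57-fold higher (fitted change 4.10, SE 0.90, adjusted p = 0.00684), where 3.84% of probes were called higher. For PER the bound was 1.35-fold (3.89, SE 0.90, adjusted p = 0.0187), where 1.13% were. Each bound here puts the 96 h control arrays at the lowest above-background value on them, and it carries no sampling error. In control brains it was at least 1.85-fold lower at 96 h than at 24 h (adjusted p = 0.00398), where 4.72% of probes were called lower, and at least 1.29-fold lower than at 48 h (adjusted p = 0.0270), where 1.35% were. Brighter probes as a group moved the same way. Their median change was 0.90 with MMI and 0.60 with PER at 96 h. It was -0.92 and -0.60 for control 96 h against 24 and 48 h. The bounds were not set relative to these medians, and whether npy.S moved beyond them was not tested. The calls of npy.S share the 96 h control arrays with those of prlr.L and have the opposite sign. The MMI effect on npy.S also differed between 96 and 24 h (4.88, SE 1.28, adjusted p = 0.0288). With quantile normalization that difference was 3.58 (adjusted p = 0.253) and was not called. Without control 96 h replicate 1 the changes of npy.S stayed large, but 3.29 with MMI (adjusted p = 0.0558), 3.07 with PER (0.132), -3.0 for control 96 h against 48 h (0.138) and 4.07 for the MMI difference (0.0674) were no longer called, and -3.52 for control 96 h against 24 h (0.0261) was.

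The binding protein crhbp.S, which sequesters corticotropin-releasing hormone, read 190, 1493 and 1894 units with MMI at 96 h, against -482, -645 and -1256 in controls (fitted change 3.77, SE 0.98, adjusted p = 0.0203). Only 1 of those arrays, MMI replicate 2, was above background, and no fold is given. Without it the adjusted p was 0.101. The controls were all below 0, so they sat at the floor and added no spread. Over the processing alternatives the change ran from 1.90 to 5.80, and the call was lost in 4 of 10 (adjusted p up to 0.453). Of the 5 regulators, 2 were thus called higher with MMI at 96 h, where 3.84% of all probes were. With PER 1 was, where 1.13% of all probes were. These calls share the 96 h control arrays, and crhbp.S was above background on 1 of 35 arrays. The count is therefore no result about the regulators as a set. None of the 7 thyroid hormone genes was called in any of the 18 comparisons, in which 0% to 5.39% of all probes were called. That count is near the share over the array and is no result about these genes. Of the 7, only fap.L was above background on 18 or more arrays. No list median is given: in the comparisons at 96 h and over the 3 times the middle gene of each list, such as trh.S (above background on 4 arrays), thibz.L (3) or rxrb.L (14), was above background on at most 14 of the 35 arrays. The adaptor grb2.L was called in none, and its mean was highest with PTU at 96 h, at 2478 ± 866 units against 807 ± 564 in controls (n = 3 each, adjusted p = 0.476). The protease fap.L averaged 211 ± 345 units with MMI at 96 h, 2200 ± 1387 with PTU and 1943 ± 517 in the PER group, against 838 ± 2824 in controls (n = 3 each), of which 1 array was above background. None of its 96 h changes passed the test, at -0.54 with MMI (adjusted p = 0.893), 2.89 with PTU (0.371) and 2.88 for PER (0.378).

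The 3 genes did not follow each other from array to array. Over 32 distinct arrays with both values, the Pearson correlation was 0.0136 between gh1.S and prl.1.L, -0.0753 between gh1.S and prlr.L and -0.149 between prl.1.L and prlr.L. For deviations from group means on the log2 scale these were 0.22, -0.20 and -0.095. Near background such values say little about the hormone genes themselves.

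Across the 12 group means (log2), the pattern of gh1.S was most like those of csk.L, a kinase that restrains Src family kinases (Spearman 0.797), a probe of the ribosomal protein gene rpl8.S (0.727) and cyp19a1.L, the aromatase that makes estrogens (0.671), out of 107 candidate probes. That rpl8.S probe was above background on all 35 arrays, csk.L on 9 and cyp19a1.L on 11. The rpl8.S probe averaged 92079 units with PTU at 24 h, against 38831 in controls at 24 h, which is also where gh1.S was highest. For prl.1.L the most similar were ncs1.L, a neuronal calcium sensor (0.860), cct3.S, a chaperonin subunit (0.776), and fgf20.L, a growth factor (0.650). For prlr.L they were nedd4l.S, a ubiquitin ligase (0.795), another rpl8.S probe (0.788) and ets1.S, a transcription factor (0.546). For prlr.L 7 of the 12 group means are tied at 0, and all these likenesses are over 12 points that share arrays and scaling.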

How the data were processed

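The authors deposited 1 table of intensity values, linear and with a background already subtracted as the negative values show, for 898 spots on 35 one-channel arrays; per the labels' protocols, amplified brain RNA was copied into 32P-labelled cDNA. Not given in the sources used here are the scanner, the background method, any scaling and why 677 cells are empty. Paired spots were averaged (or 1 spot used where the other was empty). The background SD is the root mean square of an array's negative probe values. Arrays were scaled by the median of the 18 probes above 2 background SDs on all arrays, values below 0 were set to 0, an offset of 67.7 (5th percentile of positive values) was added and log2 taken; the design written beforehand had no detail on the negative values. Probes were fitted in limma 3.58.1 (R 4.3.3; lmFit, eBayes) over 12 groups, with Benjamini-Hochberg adjustment over all probes with at least 2 values per group compared (1 where arrays were left out), and calls under 0.05. The fitting step was tested on simulated log2 values in which every group varied, so groups wholly at the floor were not covered. The number of arrays limits the precision. Genes, lists and markers were chosen with earlier results of these data known. Genes were named as members, as list genes called or above background on 18 or more arrays, and as the 3 probes per member most alike over group means among those above background on 6 or more arrays. Names come from the platform annotation, updated through NCBI Gene identifiers. No pairing of arrays by replicate number was seen. Over 67 bright probes, deviations of 48 same-numbered pairs correlated at -0.0167 on average (range -0.41 to 0.31), against 0.00847 for 96 other pairs. Alternatives were the scaling, offset, dim-probe filter, arrays fitted, single spots, replicate block, left-out arrays and, chosen after seeing the data, a linear scale and a limit applied to both spots. Plots were made in Python 3.11.15 (matplotlib 3.10.9).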

Additional observations from a re-analysis of the deposited data

How the results depend on the processing

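Near background, values depend on scaling, offset and spot, and groups wholly below 0 add no spread. The gh1.S probe was well above background, at a median of 8.75 background SDs, yet its changes moved with the scaling too. No gh1.S comparison passed the test under any alternative run, nor did any of prl.1.L (adjusted p at least 0.258), but some signs of gh1.S turned. With quantile normalization gh1.S changed by 0.70 with MMI at 24 h, 0.48 with PTU and 0.014 with PER over the 3 times, and -1.26 for the MMI effect at 96 h minus 24 h. With values as deposited these were 0.013 for PTU over the 3 times and -0.51 for the MMI effect. Scaled on all probes they were 1.07, 0.0019 and 0.13 with MMI at 24, 48 and 96 h, 0.40, 0.66 and 0.22 with MMI, PTU and PER over the 3 times, and -0.94 for the MMI effect. The offset at the 25th percentile gave -0.0043 with PER at 24 h, and leaving out the shared PER array -0.14. The odd-numbered spot gave -0.21 with PTU at 48 h and the even-numbered one 0.0045 with PTU over the 3 times. On the linear scale, chosen after seeing the data, the differences were 342 units with MMI at 96 h, -343 with PER at 24 h and 258 with PTU over the 3 times. The cause of these turns was not tested.

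For prlr.L, the 96 h calls were lost for PER (-4.33, adjusted p = 0.0619) and control 96 h against 48 h (4.33, 0.0533) with quantile normalization, for MMI (-4.26, 0.0541) with values as deposited, and for PER (-4.48, 0.0504) and 96 h against 48 h (4.48, 0.0758) scaled on all probes. Fitting only the groups compared gave the same changes as before, -4.10 with MMI, -4.52 with PER and 4.52 for both control comparisons, with adjusted p from 0.293 to 0.434, as few arrays then set the spread. The odd-numbered spot gave -0.47, -1.77, 0.27 and 1.77 in that order, and 1.15 with PTU at 96 h, 1.03 for the MMI effect and 1.10 for the PTU effect at 96 h minus 24 h. The linear scale gave -2599 units with PER (0.210) and 3165 for 96 h against 48 h (0.0606). With PTU over the 3 times prlr.L changed by -0.070 under quantile normalization, -0.064 with the larger offset and -0.33 from the even-numbered spot. At 3 background SDs prlr.L was above background on 1 array, and with both spots required prl.1.L and prlr.L were on 0.

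Leaving out 1 array at a time, gh1.S ranged from -0.24 to 0.15 with PTU, -0.41 to -0.081 with MMI and -0.57 to -0.32 with PER over the 3 times, from -0.41 to 0.50 with MMI at 96 h, -0.11 to 0.27 with PTU at 48 h, -0.41 to 0.31 with PER at 24 h, -0.029 to 0.41 for control 96 h against 48 h and -0.061 to 0.85 for the MMI effect. For prlr.L the ranges were -4.93 to -3.27 with MMI and -5.35 to -3.69 with PER at 96 h, 3.69 to 5.35 for both control comparisons and -0.37 to 0.53 with PTU over the 3 times. Besides control 96 h replicate 3, its calls were lost without MMI 96 h replicate 1 or 3 (0.0811, 0.0798), any PER 96 h array (0.0655 to 0.0780) and, for 96 h against 48 h, any 48 h control (0.0607 to 0.0781). The npy.S and crhbp.S calls at 96 h were lost in a like way: leaving out 1 array, npy.S ranged from 3.29 to 5.72 with MMI (adjusted p up to 0.0558) and 3.07 to 5.51 with PER (up to 0.132), and crhbp.S from 3.23 to 4.69 with MMI (up to 0.144). Those losses came without control 96 h replicate 1 in each comparison, also without control 96 h replicate 3 or any PER 96 h array for npy.S with PER, and without MMI 96 h replicate 2 or 3 for crhbp.S. For control 96 h against 48 h npy.S was also lost without control 96 h replicate 3 or control 48 h replicate 1 or 3, and its MMI difference between times in 9 of 12 cases. Under the other alternatives, the npy.S call at 96 h was lost in 3 of 11 runs with MMI (adjusted p up to 0.645) and 3 of 12 with PER (0.582). For control 96 h it was lost in 2 of 11 against 24 h (0.616) and 3 of 11 against 48 h (0.811). The MMI difference between times was lost in 6 of 11 (0.323). The replicate block, on numbers that showed no pairing of the arrays, changed no call: gh1.S was -0.28, -0.027 and -0.38 with MMI, PTU and PER over the 3 times and prlr.L -4.25 with MMI at 96 h (adjusted p = 0.0162).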
